A study of Rattus norvegicus with 9 samples.

Results

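A set of 10 genes that mark blood vessel endothelium, or that encode the receptors by which it reads its growth factors, were followed through RNA from rat tibia. They were the VEGF receptors Flt1, Kdr and Flt4, the surface and junction genes Eng, Pecam1, Cdh5 and Emcn, the Tie receptors Tek and Tie1, and the apelin receptor Aplnr. They were chosen by symbol, with earlier results of these data known. Of them, 10 of 10 were found among the 23768 genes of the deposited count table. All 10 also passed the filter on low counts, which kept 16816 genes. The tibiae came from male Sprague Dawley rats in 3 groups of 3 libraries: Model, GelMA and PMLGH. GelMA is the common short form of gelatin methacryloyl, a gelatin that sets into a hydrogel. The series title speaks of a peptide that imitates the enzyme LOX and of bone healing in diabetes. What PMLGH stands for, how the Model animals were prepared, whether all groups share that preparation, the rats' age, the day of sampling and any pooling of animals are not stated in the labels. Nor is it said that each library came from a different animal, so p-values measure the spread between libraries, which may be technical.

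As background, VEGF ligands made by bone cells and other tissue cells bind receptor tyrosine kinases on endothelium. Kdr (VEGFR-2) carries most of the growth signal, Flt1 (VEGFR-1) binds VEGF-A tightly and in its soluble form acts as a decoy, and Flt4 (VEGFR-3) is best known from lymphatic vessels and from the sinusoids of bone marrow. Growing and healing bone depends on ingrowth of vessels, and vessels rich in Emcn and Pecam1 are known to run beside bone-forming cells. Pecam1 is also carried by platelets and many leukocytes, Eng by macrophages and stromal cells, and Tek and Emcn by blood stem cells. In bulk RNA, more endothelial cells and more of a transcript per cell cannot be told apart.

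Total counts ran from 34571478 to 37166383 per library. The bone collagen gene Col1a1 was at 9730 CPM in Model, 18400 in GelMA and 20600 in PMLGH. It is also one of the fibroblast and stromal markers used below, so it does not by itself identify the tissue. Here CPM are counts scaled to a common library size with TMM factors, so that they can be compared between libraries. Model 2 stood apart: the chi-square between 2 libraries, averaged over genes, was 33.0 to Model 1 and 27.7 to Model 5, but 15.7 between Model 1 and Model 5. Without Model 2 the same number of these endothelial genes was called against Model, 6 for PMLGH and 5 for GelMA. Markers of other tissues and cells differed in level between groups. The summed level of 12 skeletal muscle markers was 609 to 846 CPM in Model, 2840 to 3480 CPM in GelMA and 961 to 1330 CPM in PMLGH. For 12 erythroid markers it was 101000 to 112000 CPM in Model against 76300 to 86400 CPM in GelMA and 75000 to 88700 CPM in PMLGH. For 11 megakaryocyte and platelet markers it was 947 to 993 CPM in Model against 718 to 811 and 756 to 795 CPM. The part of these other tissues in the differences below was not tested.

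Against Model, most of the endothelial genes were higher in PMLGH. Of the 10 genes, 6 rose, none fell and 4 did not pass, where 15.7% of all tested genes rose, 11.9% fell and 27.5% did either (adjusted p under 0.05 in edgeR's quasi-likelihood test, adjusted over all 16816 genes). Those that rose were Aplnr, Flt1, Cdh5, Eng, Pecam1 and Tie1. The median log2 fold change was 0.37, against 0.02 over all tested genes. In GelMA against Model 5 genes rose, none fell and 5 did not pass, where 12.7% of all genes rose, 9.88% fell and 22.6% did either, and the median was 0.26 against 0.03. Those that rose were Flt1, Pecam1, Cdh5, Tie1 and Eng. In PMLGH against GelMA only Eng rose among the 10 and none fell, where 1.80% of all genes rose, 1.64% fell and 3.44% did either, with a median of 0.08 against 0.00. The 3 comparisons share libraries, so they are not independent of each other. The 10 genes were chosen with earlier results of these data known, so their counts beside these shares only describe. The libraries of PMLGH and Model did not overlap in 8 of the 10 genes (7 higher and 1 lower), where 39.4% of all genes did not overlap and 21.1% lay higher. In GelMA against Model 6 genes lay wholly higher and none lower, where 36.6% of all genes did not overlap and 19.8% lay higher. In PMLGH against GelMA 3 genes lay wholly higher, where 23.7% did not overlap and 12.3% lay higher.

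**Figure D1:**
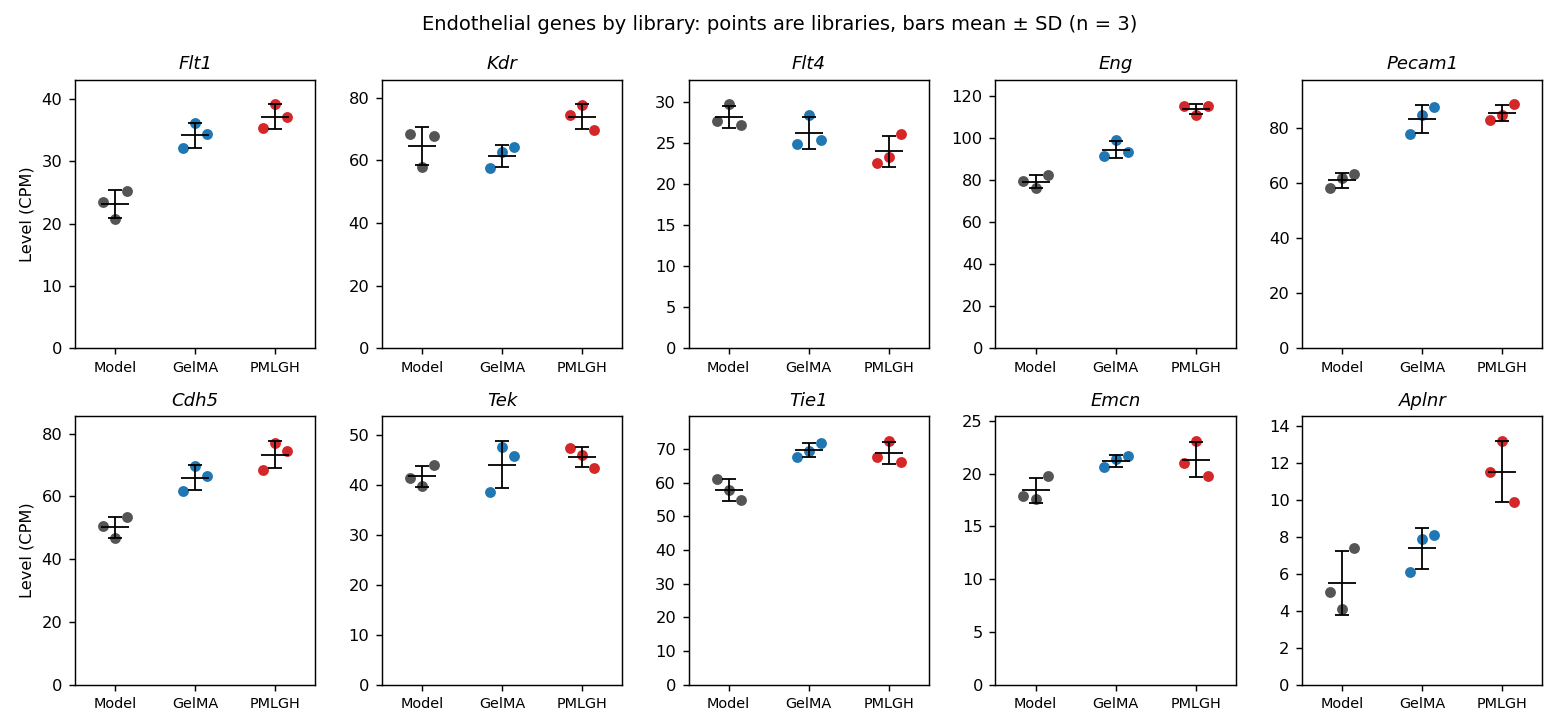
Level of each of the 10 genes in CPM (vertical axis, from 0) in the 9 libraries by group (horizontal axis). Points are libraries and bars give the mean ± SD (n = 3). Flt1, Kdr, Eng, Pecam1, Cdh5, Tie1 and Aplnr lie higher in every PMLGH library than in any Model library, and Flt4 lies lower.

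**Figure D2:**
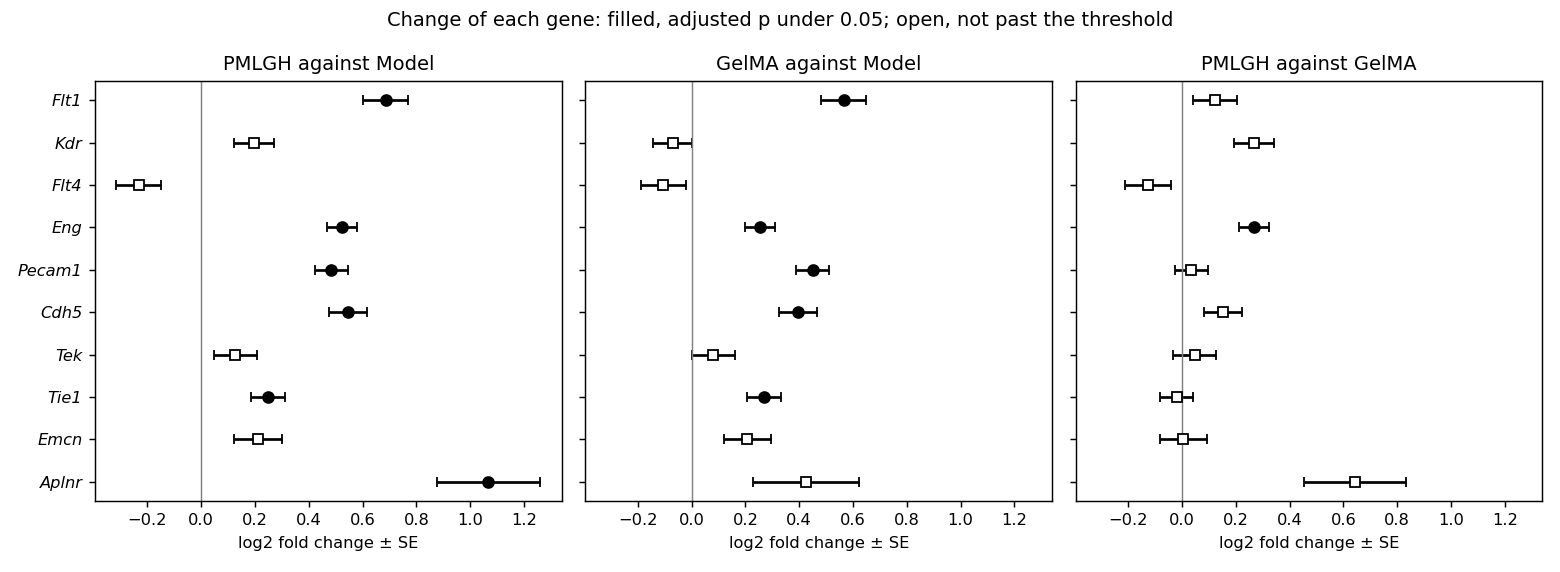
Fitted log2 fold change of each gene (horizontal axis) ± its approximate SE in the 3 comparisons. Filled points passed the test, 6, 5 and 1 of them, and open points did not.

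Among the VEGF receptors, Flt1 rose and Kdr and Flt4 did not pass. Flt1 was at 23.4, 20.8 and 25.2 CPM in Model 1, 2 and 5, at 32.1, 36.1 and 34.4 CPM in GelMA 2, 3 and 4, and at 35.3, 39.2 and 37.1 CPM in PMLGH 2, 3 and 4. Every GelMA and PMLGH library was above every Model library, while GelMA and PMLGH overlapped. Its log2 fold change was 0.69 ± 0.08 (SE) in PMLGH against Model (edgeR adjusted p = 2.7e-05), a 1.61-fold level, and 0.56 ± 0.08 in GelMA against Model (adjusted p = 2.2e-04). Counts per gene do not separate the membrane receptor from its soluble form.

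Kdr, the main signalling receptor, was at 68.5, 57.8 and 67.7 CPM in Model, at 57.6, 62.7 and 64.4 CPM in GelMA and at 74.4, 77.8 and 69.8 CPM in PMLGH. The PMLGH libraries lay above all the others, and GelMA and Model overlapped. None of the 3 differences passed: the log2 fold change was 0.19 ± 0.07 in PMLGH against Model (edgeR adjusted p = 0.064), -0.07 ± 0.07 in GelMA against Model (adjusted p = 0.55) and 0.27 ± 0.07 in PMLGH against GelMA (adjusted p = 0.069). Without Model 2, the lowest of its group, the first of these was 0.09 (adjusted p = 0.34), the second -0.18 (adjusted p = 0.055) and the third 0.26, which then passed (adjusted p = 0.0097).

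Flt4, the receptor of VEGF-C and VEGF-D, was at 27.6, 29.7 and 27.1 CPM in Model, at 24.8, 28.4 and 25.3 CPM in GelMA and at 22.5, 23.3 and 26.1 CPM in PMLGH. It was the one gene of the 10 whose PMLGH libraries all lay below Model. The log2 fold change of -0.23 ± 0.08 missed the threshold (edgeR adjusted p = 0.053). It passed under 7 of the 18 alternative settings, RLE scaling among them (adjusted p = 0.035), with adjusted p of 0.026 to 0.15 over all 18. Against GelMA the value was -0.13 ± 0.08 (adjusted p = 0.52).

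Because these receptors and Eng moved by unlike amounts, the 250 bases before their start sites are shown for comparison. RefSeq windows (build GRCr8) were matched for 6 of the 10 genes: Flt1, Kdr, Flt4, Eng, Tie1 and Emcn. Pecam1, Cdh5, Tek and Aplnr are named only. The Flt1 stretch is chr12:12333180-12333429, Kdr is chr14:32571813-32572062, Flt4 is chr10:34414584-34414833 and Eng is chr3:36332029-36332278, all on the plus strand, written 5′ to 3′. Capitals mark ETS letters (CCGGAA or AGGAAG), hypoxia response core letters (ACGTG or GCGTG) and the TATA box letters TATAAA, each read on both strands.
Flt1: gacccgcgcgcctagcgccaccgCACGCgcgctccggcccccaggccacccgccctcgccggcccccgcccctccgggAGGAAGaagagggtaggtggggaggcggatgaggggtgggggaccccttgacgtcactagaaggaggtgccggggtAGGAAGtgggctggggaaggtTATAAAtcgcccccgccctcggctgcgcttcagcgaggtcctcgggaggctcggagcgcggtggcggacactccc
Kdr: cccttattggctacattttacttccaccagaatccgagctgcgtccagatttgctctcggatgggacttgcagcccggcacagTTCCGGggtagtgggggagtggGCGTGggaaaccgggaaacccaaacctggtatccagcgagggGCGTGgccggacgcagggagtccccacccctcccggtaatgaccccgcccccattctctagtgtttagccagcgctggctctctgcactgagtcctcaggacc
Flt4: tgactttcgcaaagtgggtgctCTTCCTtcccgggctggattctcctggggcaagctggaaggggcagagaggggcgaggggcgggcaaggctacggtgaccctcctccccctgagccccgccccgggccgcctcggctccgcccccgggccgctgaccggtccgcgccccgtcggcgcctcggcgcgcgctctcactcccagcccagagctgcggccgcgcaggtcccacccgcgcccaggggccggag
Eng: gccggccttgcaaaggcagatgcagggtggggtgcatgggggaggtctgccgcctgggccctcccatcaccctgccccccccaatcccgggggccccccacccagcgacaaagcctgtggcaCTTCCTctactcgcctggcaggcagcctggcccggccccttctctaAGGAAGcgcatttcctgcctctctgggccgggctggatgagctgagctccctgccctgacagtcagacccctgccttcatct

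At least 1 ETS match stood in each of the 6 windows, where 38.8% of 27457 RefSeq windows of this length hold one. ETS factors such as Erg and Fli1 are known as regulators of endothelial genes. Flt1 and Eng had 2 such matches each, and Kdr and Flt4 had 1 each. Hypoxia core letters were found in Flt1 (1 match) and Kdr (2 matches) and in none of the other windows, against 37.9% of all windows. TATAAA stood in Flt1 alone of the 6, 75 bases before its start, against 13.1% of all windows. The SP1 letters GGGCGG, not marked, occurred 3 times in Flt1, once in Kdr and 3 times in Flt4 (32.4% of all windows hold them). Neither AGATAA nor TGATAA, the GATA letters, was in these 4 windows, and Emcn had 1 match (16.6% of all windows). No matches of different motifs overlapped in these windows. The windows of Flt1 and Flt4 were 73.2% and 76.0% G and C, against a median of 52.0% over all windows. These matches describe letters and not bound sites.

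The junction and surface genes rose together, with Emcn as the exception. Cdh5 encodes VE-cadherin, the adhesion protein of endothelial junctions. It was at 50.6, 46.7 and 53.3 CPM in Model, at 61.8, 69.8 and 66.4 CPM in GelMA and at 68.5, 77 and 74.5 CPM in PMLGH. Neither GelMA nor PMLGH overlapped Model. The log2 fold change was 0.55 ± 0.07 in PMLGH (edgeR adjusted p = 4.8e-05) and 0.39 ± 0.07 in GelMA (adjusted p = 0.0010), and PMLGH against GelMA gave 0.15 ± 0.07 (adjusted p = 0.31).

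Pecam1, the adhesion molecule CD31, was at 58.1, 61.7 and 63.3 CPM in Model, at 77.9, 84.6 and 87.8 CPM in GelMA and at 82.8, 84.7 and 88.7 CPM in PMLGH. GelMA and PMLGH overlapped each other and lay above Model. It rose by 0.48 ± 0.06 in PMLGH (edgeR adjusted p = 4.7e-05) and by 0.45 ± 0.06 in GelMA (adjusted p = 1.2e-04) on the log2 scale. Platelets also carry Pecam1, and 10 of 11 megakaryocyte and platelet markers fell in PMLGH against Model, with a median of -0.33. Many leukocytes carry it too, and 8 of 11 tested monocyte and macrophage markers rose there, with a median of 0.49. Of all tested genes 15.7% rose and 11.9% fell in that comparison. The part of these blood cells in the Pecam1 values was not tested.

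Eng encodes endoglin, a co-receptor for BMP and TGF-beta ligands, and was the one gene that separated all 3 groups. It was at 79.3, 76.0 and 82.2 CPM in Model, at 91.2, 98.7 and 93.0 CPM in GelMA and at 115, 111 and 115 CPM in PMLGH. No library of one group reached into another. Its log2 fold change was 0.52 ± 0.06 in PMLGH against Model (edgeR adjusted p = 8.1e-06), 0.25 ± 0.06 in GelMA against Model (adjusted p = 0.0044) and 0.27 ± 0.06 in PMLGH against GelMA (adjusted p = 0.012). The last call was lost without GelMA 2, GelMA 4, PMLGH 2 or PMLGH 4 (adjusted p = 0.066, 0.080, 0.065 and 0.057, with values of 0.24 to 0.26). GelMA against Model was lost without GelMA 3 (0.20, adjusted p = 0.056). Macrophages also carry Eng, and 8 of 11 tested monocyte and macrophage markers rose in PMLGH against Model, 4 in GelMA against Model and 3 in PMLGH against GelMA. The count of 4 was 7 without Model 2 and 2 without Model 1, Model 5 or GelMA 4, and the count of 3 was 7 without Model 2. Of all tested genes 15.7%, 12.7% and 1.80% rose in these 3 comparisons. The summed level of the 12 listed markers was 7730 to 9830 CPM in Model and 9570 to 10400 CPM in PMLGH, which overlapped. In GelMA it was 7830 to 8610 CPM.

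Emcn, the endothelial sialomucin endomucin, was at 17.9, 17.6 and 19.8 CPM in Model, at 20.6, 21.4 and 21.7 CPM in GelMA and at 21.0, 23.1 and 19.8 CPM in PMLGH. GelMA lay above Model, while PMLGH 4 touched Model 5. Neither difference passed, with 0.21 ± 0.09 in both (edgeR adjusted p = 0.090 for PMLGH and 0.11 for GelMA). PMLGH against GelMA was 0.00 ± 0.09 (adjusted p = 0.99).

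Of the Tie receptors, Tie1 rose and Tek did not pass. Tek (Tie2) is the receptor that angiopoietins bind, and Tie1 is a related receptor that pairs with it. Tie1 was at 61.2, 57.7 and 54.7 CPM in Model, at 67.7, 69.4 and 71.9 CPM in GelMA and at 67.6, 72.4 and 66.2 CPM in PMLGH. The GelMA and PMLGH libraries lay above Model and overlapped each other. Its log2 fold change was 0.25 ± 0.06 in PMLGH (edgeR adjusted p = 0.0079) and 0.27 ± 0.06 in GelMA (adjusted p = 0.0060). The PMLGH call was lost without Model 5 (0.19, adjusted p = 0.067) and the GelMA call without GelMA 4 (0.23, adjusted p = 0.050). Tek was at 41.4, 39.8 and 43.9 CPM in Model, at 38.6, 47.6 and 45.8 CPM in GelMA and at 47.3, 45.9 and 43.3 CPM in PMLGH. Its groups overlapped, with 0.13 ± 0.08 in PMLGH and 0.08 ± 0.08 in GelMA (adjusted p = 0.27 and 0.53).

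Aplnr, the receptor of the peptide apelin, had the lowest counts, 145 to 490 per library, and the widest change. It was at 5.04, 4.08 and 7.40 CPM in Model, at 6.13, 7.90 and 8.13 CPM in GelMA and at 11.5, 13.2 and 9.89 CPM in PMLGH. PMLGH lay above both other groups, which overlapped. It rose by 1.07 ± 0.19 on the log2 scale in PMLGH against Model (edgeR adjusted p = 8.4e-04), a 2.10-fold level. GelMA against Model gave 0.43 ± 0.20 (adjusted p = 0.14), and 0.69 with a call without Model 5, the highest Model library (adjusted p = 0.020). PMLGH against GelMA gave 0.64 ± 0.19 and missed the threshold (adjusted p = 0.085). That value passed under 6 of 19 alternative settings, DESeq2 among them (adjusted p = 0.028), with a range of 0.011 to 0.31.

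The order of the levels was read from FPKM, which divide by gene length. In Model, Eng was highest at 27.1 ± 0.92 FPKM (SD, n = 3), followed by Pecam1 (16.2), Tie1 (14.7), Emcn (13.1), Cdh5 (11.7), Kdr (10.8), Tek (9.0), Flt4 (6.38), Flt1 (1.87) and Aplnr (1.49). The libraries of Pecam1 and Tie1, of Tie1 and Emcn, of Cdh5 and Kdr, and of Flt1 and Aplnr overlapped in Model. In PMLGH, Eng was at 39.2 ± 0.78 FPKM, and Cdh5 (17.2) stood above Emcn (15.3) and Aplnr (3.16) above Flt1 (3.03), with overlap in both pairs. The length behind the FPKM was 12246 bases for Flt1 and 5895 bases for Kdr, so the order of these receptors depends on that length.

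Ratios of 2 genes within a library do not depend on library scaling or, between groups, on gene length. Flt1 amounted to 0.164 to 0.179 of the Kdr level in Model, 0.258 to 0.277 in GelMA and 0.228 to 0.256 in PMLGH, in FPKM. The log2 ratio was 0.49 higher in PMLGH and 0.64 higher in GelMA than in Model, with no overlap (exact two-sided permutation p = 0.1 each). That is the smallest p that 3 against 3 libraries allow, so no ratio could pass 0.05. Adjusted over the 15 ratio comparisons made, it was 0.12. Against Cdh5, Kdr was at 0.892 to 0.974 in Model, 0.647 to 0.698 in GelMA and 0.674 to 0.782 in PMLGH, a log2 difference of -0.46 for GelMA and -0.35 for PMLGH (exact permutation p = 0.1 each). Emcn against Cdh5 was lower in PMLGH by -0.34 and in GelMA by -0.19 (exact permutation p = 0.1 each). Pecam1 to Cdh5 overlapped between Model and either other group, with -0.06 in PMLGH and 0.05 in GelMA (exact permutation p = 0.6 and 0.5). Flt1 to Cdh5 was 0.14 and 0.17 above Model, with no overlap (exact permutation p = 0.1 each).

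The remaining genes were set against Cdh5 after their values were seen, and carry no test. The log2 ratio of Flt4 to Cdh5 was -0.91, -0.69 and -1.01 in Model, -1.36, -1.34 and -1.43 in GelMA, and -1.65, -1.76 and -1.55 in PMLGH. These 3 groups did not overlap. Tek to Cdh5 was -0.37 ± 0.03 in Model, -0.69 ± 0.08 in GelMA and -0.79 ± 0.13 in PMLGH (SD, n = 3). Eng to Cdh5 was 1.21 ± 0.04, 1.07 ± 0.04 and 1.19 ± 0.11, with overlap between Model and PMLGH. Tie1 to Cdh5 was 0.33 ± 0.15, 0.21 ± 0.08 and 0.03 ± 0.07, with PMLGH below every other library. Aplnr to Cdh5 ran the other way, at -3.01 ± 0.34, -2.95 ± 0.15 and -2.46 ± 0.21, with overlap between Model and PMLGH.

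**Figure D3:**
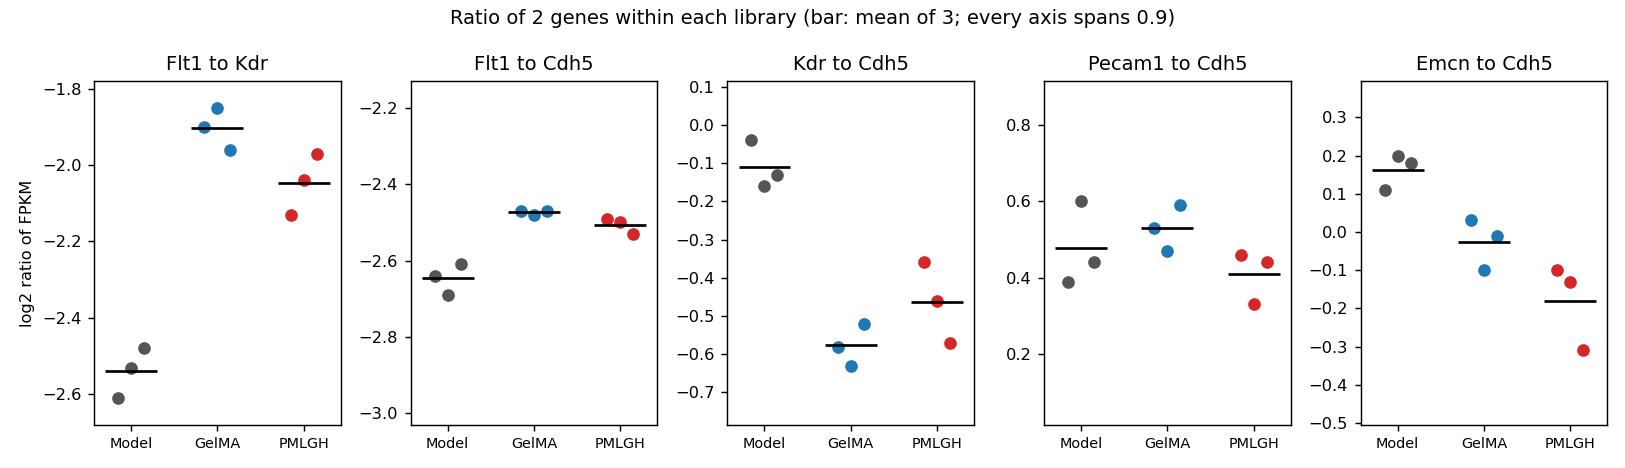
The log2 ratio of the FPKM of 2 genes (vertical axis, each spanning 0.9) in the 9 libraries by group (horizontal axis). Points are libraries and bars are means. Flt1 to Kdr lies higher and Kdr to Cdh5 lower in every GelMA and PMLGH library than in any Model library, while Pecam1 to Cdh5 overlaps.

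Among the ligands and co-receptors of the VEGF family, both neuropilins and Vegfa rose and 4 of 7 genes did not pass. Of all tested genes 15.7% rose in PMLGH against Model and 12.7% in GelMA against Model. Vegfa, the main ligand of Flt1 and Kdr, was at 58.8, 53.9 and 57.8 CPM in Model, at 62.1, 68.1 and 66.5 CPM in GelMA and at 71.4, 66.7 and 68.5 CPM in PMLGH. The Model libraries were the lowest. Its log2 fold change was 0.28 in PMLGH (edgeR adjusted p = 0.0035) and 0.21 in GelMA (adjusted p = 0.025), and the GelMA call was lost without Model 2, Model 5, GelMA 3 or GelMA 4. Nrp2, a co-receptor that works with Flt4, was at 127, 135 and 127 CPM in Model, at 164, 188 and 186 CPM in GelMA and at 236, 244 and 217 CPM in PMLGH. Its 3 groups did not overlap, and it passed in all 3 comparisons (0.84, 0.47 and 0.37, adjusted p = 3.4e-07, 1.5e-04 and 0.0042). Nrp1, the co-receptor of Kdr, rose by 0.41 in PMLGH and by 0.34 in GelMA. The other ligands did not pass in PMLGH against Model: Vegfb gave 0.12, Vegfc 0.08, Vegfd 1.13 at 0.83 CPM in PMLGH, and Pgf, a ligand of Flt1 alone, -0.15.

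In the angiopoietin and apelin list, 5 of 7 tested genes rose in PMLGH against Model (3 without Model 5, PMLGH 2 or PMLGH 3), 3 in GelMA against Model and 2 in PMLGH against GelMA (1 without GelMA 2, GelMA 3, GelMA 4, PMLGH 2 or PMLGH 3). The list holds modulators beside the ligands. The 5 were Angpt2, Angptl4, Apln, Ptprb and Svep1, and the 2 were Angptl4 and Svep1, neither an angiopoietin nor apelin. None fell, apart from Angptl4 in GelMA against Model without Model 2. Of all tested genes 15.7%, 12.7% and 1.80% rose in these 3 comparisons. Angpt2, which modulates Tek signalling in sprouting vessels, was at 9.85, 11.7 and 11.1 CPM in Model, 15.5, 15.9 and 14.8 CPM in GelMA and 14.4, 13.3 and 14.4 CPM in PMLGH. All GelMA and PMLGH libraries were above Model (log2 fold change 0.37 for PMLGH, edgeR adjusted p = 0.014, and 0.50 for GelMA, adjusted p = 0.0024). Without Model 1 the PMLGH call was lost. Angpt1, the agonist of Tek, gave -0.09 in PMLGH and -0.13 in GelMA (adjusted p = 0.45 and 0.24). Ptprb, the endothelial phosphatase that acts on Tek, rose by 0.38 and 0.41. Svep1, a matrix protein that binds Tie1, rose by 1.07 and 0.66. Apln, the ligand of Aplnr, was at 2.62, 2.34 and 1.23 CPM in Model and at 3.37, 3.67 and 3.38 CPM in PMLGH. It passed (0.75, adjusted p = 0.042), and lost its call in 7 of 12 further settings, each of which left out 1 library.

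**Figure D4:**
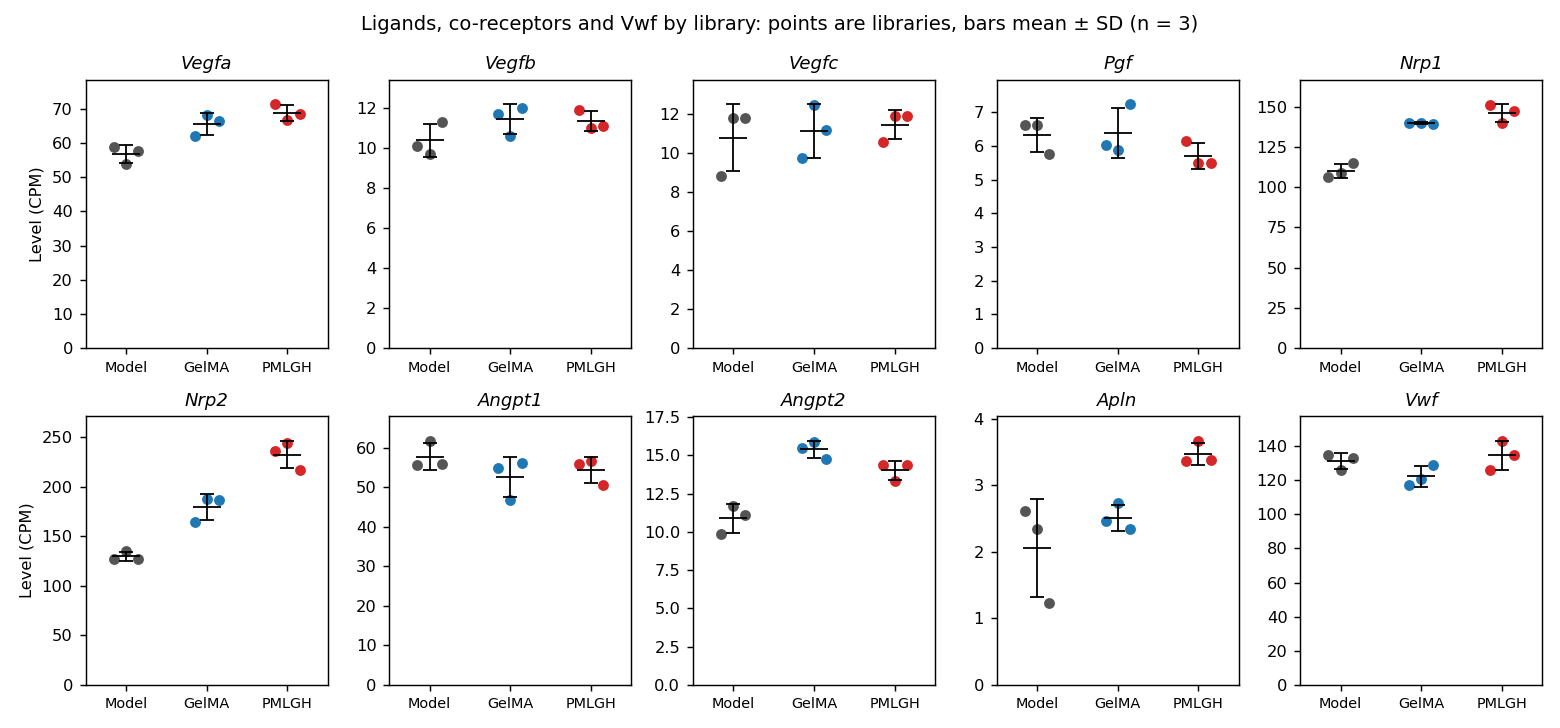
Level of the ligands Vegfa, Vegfb, Vegfc, Pgf, Angpt1, Angpt2 and Apln, the co-receptors Nrp1 and Nrp2, and Vwf, in CPM (vertical axis, from 0) by group. Points are libraries and bars give the mean ± SD (n = 3). Nrp2 steps up over the 3 groups, while Angpt1 and Vwf overlap.

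The list made around endoglin held receptors, TGF-beta ligands and, inside the cell, Smad and Id genes. Gdf2, absent from the count table, and Bmp10, with 2 counts in all, were listed but not tested. Of 12 tested genes 9 rose in PMLGH against Model, 9 in GelMA against Model and none in PMLGH against GelMA. The medians were 0.35, 0.30 and 0.00. Over all tested genes 15.7%, 12.7% and 1.80% rose in these comparisons. Tgfb1, Smad5 and Smad6 did not pass in PMLGH against Model. The PMLGH count was 5 without Model 1 and 6 without Model 5 or PMLGH 3, and the GelMA count was 6 without GelMA 3. Acvrl1, the receptor that endoglin assists, rose by 0.26 in PMLGH (edgeR adjusted p = 0.017) and by 0.29 in GelMA (adjusted p = 0.0095). The PMLGH call did not survive leaving out Model 1, Model 2 or PMLGH 4, nor the GelMA call leaving out GelMA 3. Id3, a transcription regulator induced by BMP signals, rose by 0.54 and 0.36.

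Other genes of endothelium did not move as one. Of 23 tested pan-endothelial genes, 12 rose, 2 fell and 9 did not pass in PMLGH against Model, with the same counts in GelMA. Of all tested genes 15.7% rose and 11.9% fell in PMLGH against Model, and 12.7% rose and 9.88% fell in GelMA. The GelMA count of 12 was 7 without GelMA 3 or GelMA 4, while 10 to 12 rose in PMLGH in every setting run. Mcam (CD146) rose by 0.90 in PMLGH, Cd34 by 1.02 and the sphingosine receptor S1pr1 by 0.62. Vwf, the von Willebrand factor of endothelium and platelets, was at 135, 126 and 133 CPM in Model, 117, 121 and 129 CPM in GelMA and 126, 143 and 135 CPM in PMLGH. Its groups overlapped in PMLGH against Model (0.04, edgeR adjusted p = 0.72). The genes that fell were Aqp1, a water channel also abundant in red cells, and Gpihbp1, the capillary anchor of lipoprotein lipase, which were the only 2 and are named for that. Aqp1 in PMLGH lost its call without Model 1 (adjusted p = 0.052). Of 12 endothelial transcription factors 6 rose and 2 fell in PMLGH, but 1 rose without Model 1, PMLGH 3 or PMLGH 4, 2 without Model 5 and 3 without PMLGH 2. In GelMA 6 rose, with 1 without Model 1 or GelMA 4 and 3 without Model 5 or GelMA 3. The 2 that fell, Gata2 (-0.54) and Tal1 (-0.49), are also factors of blood progenitors and red cell precursors. Erg gave 0.29 in PMLGH and lost its call without Model 1, Model 5, PMLGH 3 or PMLGH 4.

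Genes of sprouting tip cells, arteries and Notch signalling rose in part. Of 21 tested, 11 rose in PMLGH against Model, 10 in GelMA against Model and 3 in PMLGH against GelMA, with none lower and medians of 0.60, 0.57 and 0.10. Over all tested genes 15.7%, 12.7% and 1.80% rose in these comparisons, and 11.9% fell in PMLGH against Model. By fold the first in PMLGH were Col4a1 (1.39), Gja4 (1.35), Efnb2 (1.28), Col4a2 (1.26) and Lama4 (1.05). Gja4 encodes an arterial connexin and Efnb2 the arterial ephrin ligand. Col4a1, Col4a2 and Lama4 encode basement membrane proteins that stromal cells make too, and had the lowest p. Dll4, the Notch ligand of tip cells, was at 4.22, 4.05 and 5.49 CPM in Model and 5.91, 6.82 and 5.81 CPM in PMLGH, a difference that did not pass (0.43, edgeR adjusted p = 0.11). Of 9 tested sinusoidal and lymphatic genes 5 rose and 2 fell in PMLGH against Model. The count of 5 was 6 without Model 1, and 4 without any other library but PMLGH 3. Those that rose were Stab1 (0.49), which macrophages share, Mrc1, which is also on the macrophage list, Fcgr2b, Pdpn and Ccl21. Ccl21 kept its call in 4 of 12 further settings. Reln and Mmrn1 fell, and Lyve1 and Stab2 did not pass. The defining lymphatic factor Prox1 had 19 counts over all 9 libraries and was not tested. Of 7 tested genes listed for activated endothelium 4 rose and 1 fell in PMLGH against Model. The adhesion molecules Icam1, which leukocytes also carry, and Sele rose by 0.97 and 0.68. The other risers were no adhesion genes: Tnfaip3, a feedback inhibitor of NF-kappaB, and Csf3, a cytokine that drives granulocyte formation. Ackr1, a chemokine receptor of venules and red cells, fell by 0.44. The adhesion genes Vcam1 and Selp did not pass, at -0.19 and 0.02 (edgeR adjusted p = 0.059 and 0.91), and in GelMA Vcam1 fell by 0.36.

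Most listed markers of the cells around vessels were also higher. Of 12 mural cell markers 10 rose in PMLGH and 10 in GelMA against Model, with medians of 0.71 and 0.68. Over all tested genes 15.7% rose in PMLGH and 12.7% in GelMA against Model. Kcnj8 and Higd1b passed in neither. Abcc9 lost its PMLGH call without Model 1, Model 5, PMLGH 2 or PMLGH 3, and its GelMA call without Model 5 or GelMA 3. Des rose more in GelMA than in PMLGH and fell in PMLGH against GelMA, as the skeletal muscle markers did. Acta2, the smooth muscle actin, was at 18.1, 14.5 and 23.6 CPM in Model, 61.4, 59.7 and 61.9 CPM in GelMA and 76.6, 80.2 and 75.0 CPM in PMLGH. The groups did not overlap. Rgs5, a pericyte gene, rose by 1.16 in PMLGH and 0.80 in GelMA. Of 10 fibroblast and stromal markers 8 rose in each, with medians of 0.76 and 0.67. The difference between these lists and the endothelial genes was not tested.

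The skeletal muscle markers were highest in GelMA. In GelMA against Model 12 of 12 rose, with a median log2 fold change of 2.05, in PMLGH against Model 11 rose with a median of 0.64, and in PMLGH against GelMA 12 fell with a median of -1.39. Over all tested genes 12.7% rose in GelMA against Model, 15.7% rose in PMLGH against Model and 1.64% fell in PMLGH against GelMA. Of the 10 endothelial genes, Eng, Kdr and Aplnr lay higher in every PMLGH library than in any GelMA library and 7 overlapped, Tie1 among them at -0.02. Of all tested genes 23.7% did not overlap in PMLGH against GelMA and 12.3% lay higher. The part of muscle RNA in these values was not tested. Of 11 blood stem and progenitor markers 3 rose and 3 fell in PMLGH against Model (1 rose without Model 2 or PMLGH 3). Over all tested genes 15.7% rose and 11.9% fell there. The summed level of these 11 markers was 195 to 205 CPM in Model, 184 to 190 in GelMA and 179 to 188 in PMLGH. The macrophage marker Marco had 2 counts over all libraries.

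**Figure D5:**
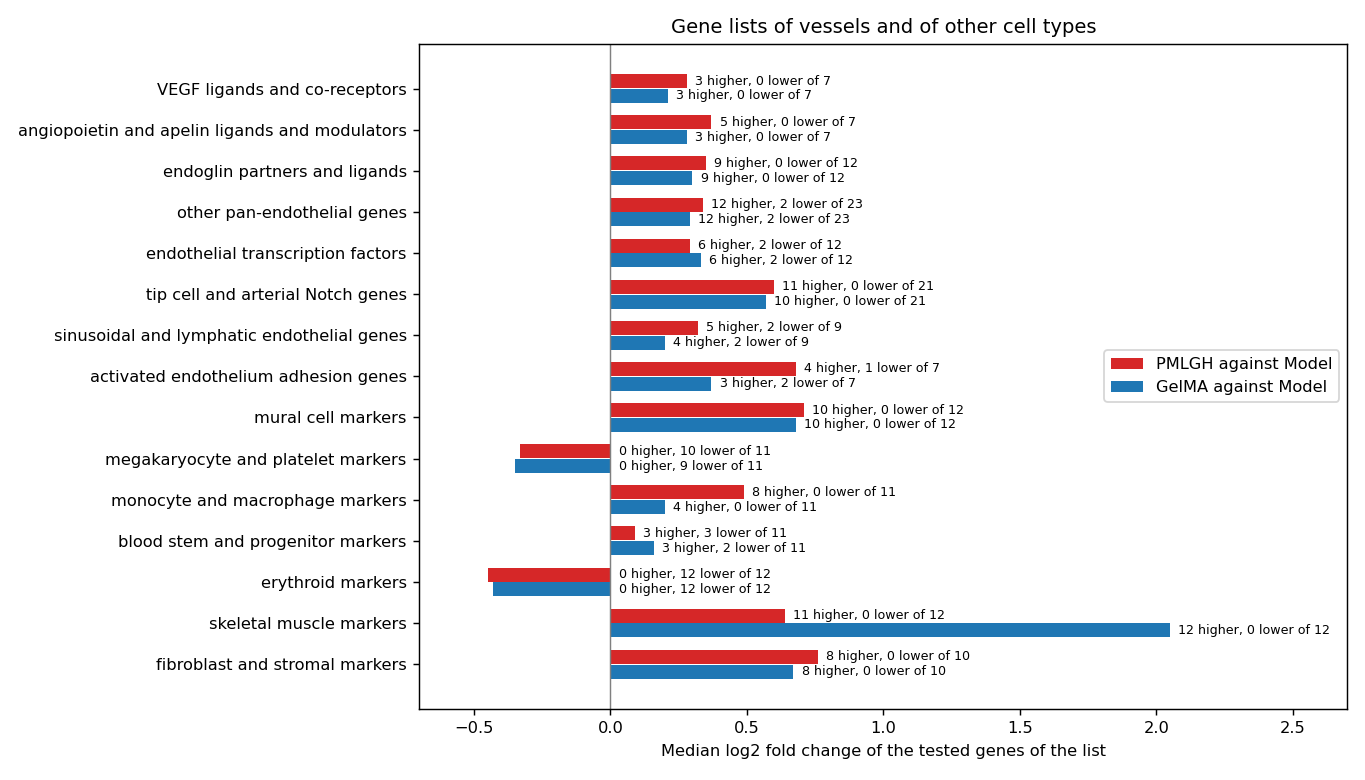
Median log2 fold change (horizontal axis) of the tested genes of each list in PMLGH and in GelMA against Model, with the number called higher and lower. Vessel lists lie between 0.20 and 0.71, erythroid and platelet lists lie below 0, and the muscle list reaches 2.05 in GelMA.

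Genes whose levels ran most like Cdh5 over the 9 libraries were ranked by Pearson's r of log2 CPM. The ranking held the 12854 genes whose mean reached 1 CPM, with the 10 endothelial genes and placeholder names left out. The first 5 were Igsf10 (0.990), Cdk14 (0.987), Mmrn2 (0.987), Sfrp2 (0.984) and Cpd (0.984). Of these, Mmrn2 is an endothelial matrix protein, and Sfrp2 is a Wnt modulator of stromal cells. For Flt1 they were Sfrp2 (0.992), Lrrc15, Cdk14, Cdh13 and Col14a1 (0.990). Between Flt1 and Cdh5 themselves, both left out of the ranking, r was 0.99. The values describe these 9 libraries, which share 3 group means, and 539 of the ranked genes had an r over 0.9 with Cdh5 and 594 with Flt1.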

How the data were processed

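The deposited table of raw counts per gene symbol was used as the authors made it, with 23768 genes, and the authors' deposited FPKM equalled the count over the library total and a single length for each gene (relative tolerance 1e-04) in all 22798 genes with counts. The sources used here do not give the aligner, counter, build, annotation or strand, and no batch is named, so a batch that coincides with a group cannot be told apart from it. The submitters' processing notes name DESeq2 and R 3.2.0. Genes were filtered with filterByExpr (16816 kept), scaled by TMM and tested with edgeR 4.0.16 in R 4.3.3 (quasi-likelihood, 1 mean per group, 9 libraries, 6 residual degrees of freedom, two-sided, Benjamini-Hochberg adjustment, threshold 0.05). The common biological coefficient of variation was 10.1%. The SE is the log2 fold change over the square root of F. Ratios of FPKM were compared by exact two-sided permutation tests. Alternatives were RLE, upper-quartile and raw totals, no filter, a robust spread, DESeq2 1.42.0, 2 groups only, limma 3.58.1 on log2(FPKM + 1) and log2(FPKM + 0.1), each library left out, and a replicate block. The script was tested on simulated data. The 10 genes and the lists were chosen with earlier results of these data known. The text names all 10 genes, and from each list fixed genes and up to 3 of smallest p in PMLGH against Model whose mean reached 1 CPM, and further genes after their values were seen. Libraries of a group were compared by chi-square, averaged over genes whose mean count reached 50, and none was a copy of another.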

Additional observations from a re-analysis of the deposited data

How the results depend on the processing

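In PMLGH against Model and in GelMA against Model, the counts of 6 and 5 endothelial genes stayed within 1.5 times under each alternative, at 5 to 7 and 4 to 6. In PMLGH against GelMA the count of 1 rested on the setting. It was 3 with no filter on low counts, with DESeq2 and with only the groups compared, where Kdr and Aplnr joined Eng, and 0 to 3 when each library was left out in turn (0 without GelMA 2, GelMA 4, PMLGH 2 or PMLGH 4, 3 without Model 2 and 2 without Model 5). Only GelMA and PMLGH share all their replicate numbers. Same-numbered libraries did not deviate together over all tested genes (r = 0.01, 0.03 and -0.01). The labels do not say what the numbers mean, and a low r cannot show that they pair no libraries. With the replicate block, fitted to these 6 libraries, the count was 3 and 1037 of all genes were called, against 1059 with no block in the same libraries. Model shares 1 number with the others, so no block was fitted there. The cause of these changes was not tested.

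Signs turned only in values near 0 that passed no test. In PMLGH against GelMA, Emcn was -0.02 under upper-quartile scaling, raw library totals and both limma fits, and 0.00, -0.02 and -0.06 without Model 5, GelMA 2 and PMLGH 3. Without GelMA 2, Pecam1 was -0.01 and Tek -0.04 there, and without PMLGH 4 Tie1 was 0.01. In GelMA against Model, Tek was 0.00 without GelMA 3. With each library left out in turn, the ranges were 0.00 to 0.17 for Tek in GelMA against Model, and in PMLGH against GelMA -0.06 to 0.05 for Emcn, -0.01 to 0.07 for Pecam1 and -0.04 to 0.11 for Tek. The ratios kept their sign in all settings run. Further alternatives for the lists and the ratios with no test were chosen after seeing the data. Of the 10 genes, Aplnr had the fewest counts, 145 to 490 per library, and the largest SE, 0.19 to 0.20. How much of that SE comes from depth was not tested.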
